A study of Mus musculus with 3 samples.

Results

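The 10 genes for costimulatory and checkpoint ligands are described here in CD11b+ dendritic cells (DCs) of the mouse spleen: Cd80, Cd86, Cd40, Icosl, Cd274, Pdcd1lg2, Tnfsf4, Tnfsf9, Cd83 and Cd70. They were taken by name from the array annotation, as every probe set whose only annotated gene was 1 of the 10. All 10 genes were found, in 11 of 35556 probe sets, because Cd80 has 2. No probe set shared between several genes held any of them. They are 10 of 19938 genes that have a probe set of their own.

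Whole-transcript arrays (Affymetrix Mouse Gene 1.0 ST) were used, with 1 array for each of 3 populations of CD11c(hi) CD11b+ cells, sorted after magnetic depletion of lymphoid and erythroid cells. Control mice carried the Cx3cr1-GFP reporter, which is all that their samples' strain label names, and per the series' design text RBPJ flox/flox alleles without Cre. Their cells were sorted as Esam(hi) GFP(lo) and as Esam(lo) GFP(hi). The RBPJ-deficient mice carried the same reporter and floxed alleles with CD11c-Cre, which acts in CD11c-expressing cells, and their cells were sorted as 1 Esam(lo) GFP(hi) population. Each array holds RNA from the pooled spleens of 2 to 3 mice, and the labels do not state the age of the mice. No group has a second array, so nothing measures replicate error, and no difference below has a test or a p-value. Values given in threes follow the order Esam(hi) control, Esam(lo) control, RBPJ-labelled.

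T cells need a signal beside antigen to be activated, and DCs give it through surface ligands. CD80 and CD86 bind CD28, which activates, and CTLA-4, which restrains. ICOS ligand supports follicular helper T cells, and PD-L1 and PD-L2 (Cd274 and Pdcd1lg2) bind the inhibitory receptor PD-1. OX40 ligand, 4-1BB ligand and CD70 (Tnfsf4, Tnfsf9 and Cd70) are members of the tumour necrosis factor (TNF) family that prolong T cell responses. CD40 is the receptor through which helper T cells activate the DC, and CD83 is a surface marker of mature DCs that stabilises MHC class II and CD86.

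Values are log2 expression values, so a difference of 1 is a 2-fold difference. The background level of an array was the 95th percentile of 1209 chemosensory receptor genes on it, which are silent in most tissues outside the nose. It lay at 7.16, 6.75 and 6.87 on the 3 arrays. A gene was called higher or lower when it was at least 2-fold apart and its brighter array was above background. The brighter Rbpj probe set, at 9.85, 9.85 and 10.04, had no lower value in the cells labelled RBPJ-deficient. The other (6.11, 5.63 and 5.63) was below background on every array. How many Rbpj probes lie in the deleted exons is unknown here. Directions drawn from the RBPJ-labelled array therefore rest on its label. Esam itself was above background only on the control Esam(hi) array (7.79, 6.57 and 6.12). All 12 classical DC markers were above background on every array. Of the markers of other cells, 4 of 10 for T cells and 5 of 8 for plasmacytoid DCs were above background on each array, and 1, 2 and 2 of 8 for natural killer cells. For erythroid cells the counts were 1, 1 and 0 of 5, and for platelets 2, 1 and 1 of 6.

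Of the 10 ligand genes, 7 were above background on all 3 arrays. Pdcd1lg2 read 6.90 on each array, which is above background on both Esam(lo) arrays and below it on the Esam(hi) array. Tnfsf4 read 5.28 on each array and Cd70 read 5.38, 5.24 and 5.24, so these TNF family ligands were below background everywhere. Exact ties are common in these values, at 13.6% of the genes tested between the control arrays, and a tie is no measure of sameness.

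**Figure D1:**
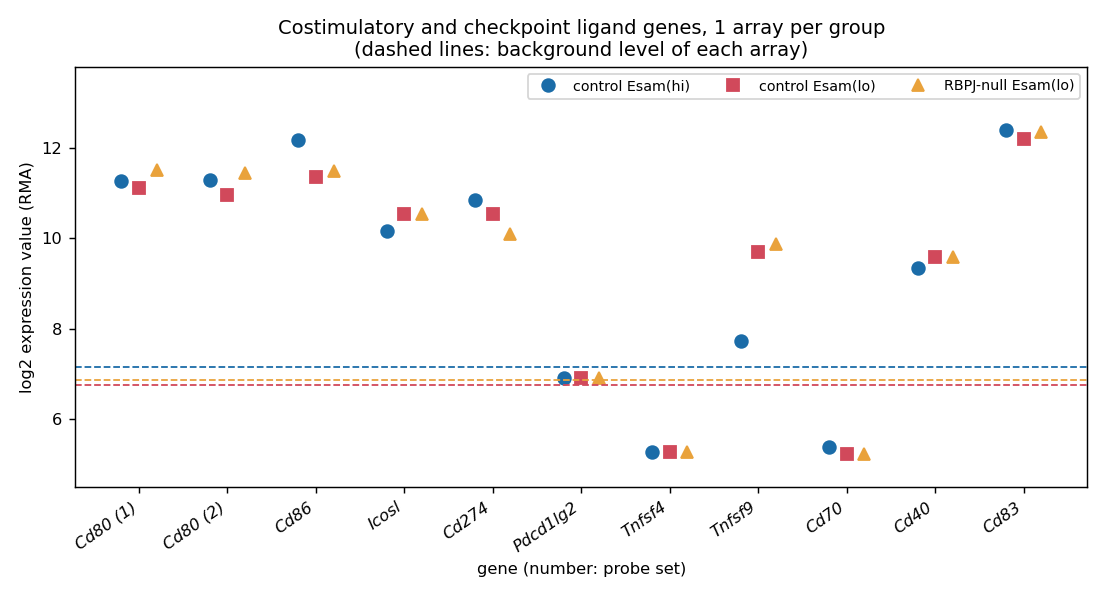
Log2 expression values (y axis) of the 11 probe sets of the ligand genes (x axis) in each of the 3 populations, 1 point per array, with each array's background level as a dashed line. Tnfsf9 is the gene whose Esam(hi) point, at 7.74, lies farthest from its Esam(lo) point, at 9.71, and Tnfsf4 and Cd70 lie under all 3 lines.

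The first comparison sets Esam(hi) against Esam(lo) cells of control mice, the subsets that the study separates. Tnfsf9, the 4-1BB ligand, was the ligand gene farthest apart: its level in Esam(hi) cells was 3.91-fold lower. Cd86 had the largest difference in the other direction, 1.77-fold higher on the Esam(hi) array, short of 2-fold. Of the 8 ligand genes above background on at least 1 of the control arrays, 1 was called lower and none higher. Over all 9717 genes so tested, 11.0% were called lower and 0.772% higher, so 1 call of 8 is near the background share. The members' median difference was 0.08, against -0.28 over all genes tested. With each array centred on its median the members' median changed sign, to -0.03.

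These arrays do not share 1 distribution, and the difference between them goes with level. At a mean level of 9.5 the trend over all genes lay at -0.51, and at 12 it lay at -0.33. Removing that trend moved the median of all genes tested from -0.28 to 0.03, quantile normalization moved it to -0.09, and centring the arrays moved it to -0.39. The split of calls over all genes moved with it, from 75 higher and 1067 lower on the deposited values to 215 higher and 390 lower without the trend, which are 2.21% and 4.01%. The members' median stood at 0.39 with the trend removed, 0.26 under quantile normalization and -0.03 with the arrays centred. Differences are therefore given on the deposited values and again with the trend removed.

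**Figure D2:**
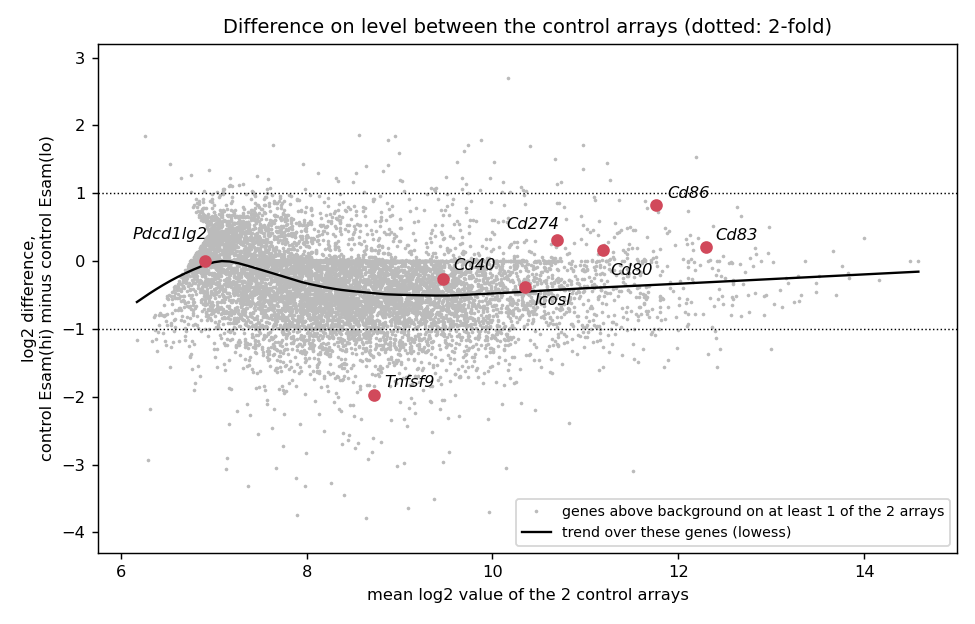
Log2 difference, Esam(hi) value less Esam(lo) value of the control mice (y axis), against the mean log2 value of both arrays (x axis) for the 9717 genes above background on at least 1 of them (grey), with the trend over these genes as a line and the 8 ligand genes among them in red. Tnfsf9 lies at -1.97, below the dotted 2-fold line, while Cd86 at 0.83 and Cd274, Cd83 and Cd80 lie above the trend.

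Of the genes for the CD28 and CTLA-4 ligands, Cd86 had its highest value in Esam(hi) cells and Cd80 on the RBPJ-labelled array. Cd86 read 12.18, 11.35 and 11.48. Its Esam(hi) value thus stood above both Esam(lo) values, which lay close together. The trend at its level was -0.35, and with it removed Cd86 was 2.26-fold higher in Esam(hi) cells (difference 1.18) and was called higher. It was also called under quantile normalization, at 1.09, where 1.54% of all genes were called higher. On the deposited values 149 of the 9717 genes (1.53%) were at least as far above 0 as Cd86, and 122 (1.26%) with the trend removed.

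Cd80 differed less between the control subsets. Its brighter probe set (10435704) read 11.27 in Esam(hi) and 11.11 in Esam(lo) cells, and the other (10435712) read 11.29 and 10.96. Both probe sets were higher in Esam(hi) cells, and the difference of the brighter was 0.17 on the deposited values and 0.56 with the trend removed. Neither is a 2-fold difference.

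B cells also carry CD86, CD40, CD83 and ICOS ligand, so their markers were read beside these genes. Of 11 B cell markers, 8 were below background on all 3 arrays, among them Ms4a1, Cd79a and Pax5, which define the lineage. The mean log2 value of the 11 was 6.51, 6.37 and 6.34. The markers above background were Blk (7.59, 6.60 and 6.60, on the Esam(hi) array only), Cd79b (8.20, 9.12 and 9.29) and Cd22 (10.37, 10.10 and 9.73). Their part in the Cd86 difference was not tested.

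Icosl, whose product binds ICOS on T cells, read 10.16 in Esam(hi) cells and 10.55 on both Esam(lo) arrays. Its difference of -0.39 between the control arrays is close to the trend of -0.45 at its level, and with the trend removed it was 0.06. Of all genes tested, 42.8% were at least as far below 0 on the deposited values. The sign of the Icosl difference thus changed with the scaling.

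The PD-1 ligand genes Cd274 and Pdcd1lg2 are neighbours on chromosome 19, with no protein-coding gene between their starts. Cd274 read 10.85, 10.54 and 10.09. It was the ligand gene whose values stepped down from the Esam(hi) to the Esam(lo) to the RBPJ-labelled array. Between the control arrays its difference was 0.31 on the deposited values and 0.73, or 1.66-fold, with the trend removed, short of 2-fold on both. Pdcd1lg2 lay at the background level with an exact tie, and no direction can be given for it.

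Among the TNF family ligands, Tnfsf9 carried a difference between the subsets. It read 7.74, 9.71 and 9.87. Both Esam(lo) arrays were high and the Esam(hi) array was low, though still above its background of 7.16. The difference between the control arrays was -1.97 on the deposited values, -1.75 under quantile normalization and -1.49, or 2.82-fold, with the trend removed, so it was called lower under each. Of all genes tested, 0.813% were at least as far below 0 on the deposited values, and 1.08% with the trend removed. Its neighbour Cd70, next to it on chromosome 17, was below background on all 3 arrays.

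Most monocyte, macrophage and neutrophil markers had, like Tnfsf9, their lowest value in Esam(hi) cells. Of 13 monocyte and macrophage markers, 7 were above background on the control Esam(hi) array and 12 on each Esam(lo) array, with mean log2 values of 7.98, 9.82 and 9.84. Between the control arrays 10 of these were called lower and none higher, and with the trend removed 7 lower and none higher. Cx3cr1 (8.32, 9.58 and 9.58) is among the 10 but not called with the trend removed. The cells were sorted on its GFP reporter, so its direction was not independent of the sort. Over all genes tested, 11.0% were called lower on the deposited values and 4.01% with the trend removed. Neutrophil markers counted 9, 11 and 11 of 12 (means 8.65, 9.50 and 9.64). On the deposited values 7 were called lower, and 3 with the trend removed. Mpo (9.28, 8.31 and 8.74) and Elane (8.95, 8.60 and 8.74) lay the other way. CD8+ DC markers counted 4, 6 and 6 of 10 (means 7.24, 7.63 and 7.61), with a median control difference of -0.08, and 0.03 with the trend removed. Of these, Clec9a (6.15, 9.20 and 9.20) and Naaa (8.78, 11.11 and 11.13) were called lower, and Ly75 (8.20, 7.32 and 7.57) and Batf3 (9.16, 9.03 and 8.69) had higher values in Esam(hi) cells. With the trend removed Mpo and Ly75 were called higher. Mpo, Elane, Clec9a, Naaa, Ly75 and Batf3 are named after their values were seen. Of 5 plasmacytoid DC markers above background, 2 were called lower, and with the trend removed none was called lower and 1 higher. Of 2 natural killer cell markers above background, 2 were called lower, and 1 with the trend removed. The macrophage marker Mertk, the neutrophil marker Cxcr2 and the CD8+ DC markers Xcr1, Cd8a, Gcsam and Itgae were below background on all arrays. The part of these cells in the Tnfsf9 difference was not tested, and more cells that carry Tnfsf9 cannot be told apart from more Tnfsf9 RNA per cell in such sorted pools.

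Cd40 and Cd83, which mark the activated DC, were close between the control subsets. Cd40 read 9.34 in Esam(hi) cells and 9.60 on both Esam(lo) arrays, a difference of -0.26 that turned to 0.25 with the trend removed and to 0.08 under quantile normalization. Cd83 read 12.41, 12.20 and 12.36. Its control difference was 0.21, and 0.52 with the trend removed. On the deposited values 4 of the 8 ligand genes had higher values in Esam(hi) cells, 3 had lower values and Pdcd1lg2 was tied. Over all genes tested, 18.9% had higher and 67.5% lower values on the deposited values. With the trend removed 7 of the 8 ligand genes had higher values and Tnfsf9 a lower one, where 53.7% of all genes had higher values. Icosl and Pdcd1lg2 were then at only 0.06. Under quantile normalization 5 had higher and 3 lower values, where 40.3% of all genes had higher values.

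**Figure D3:**
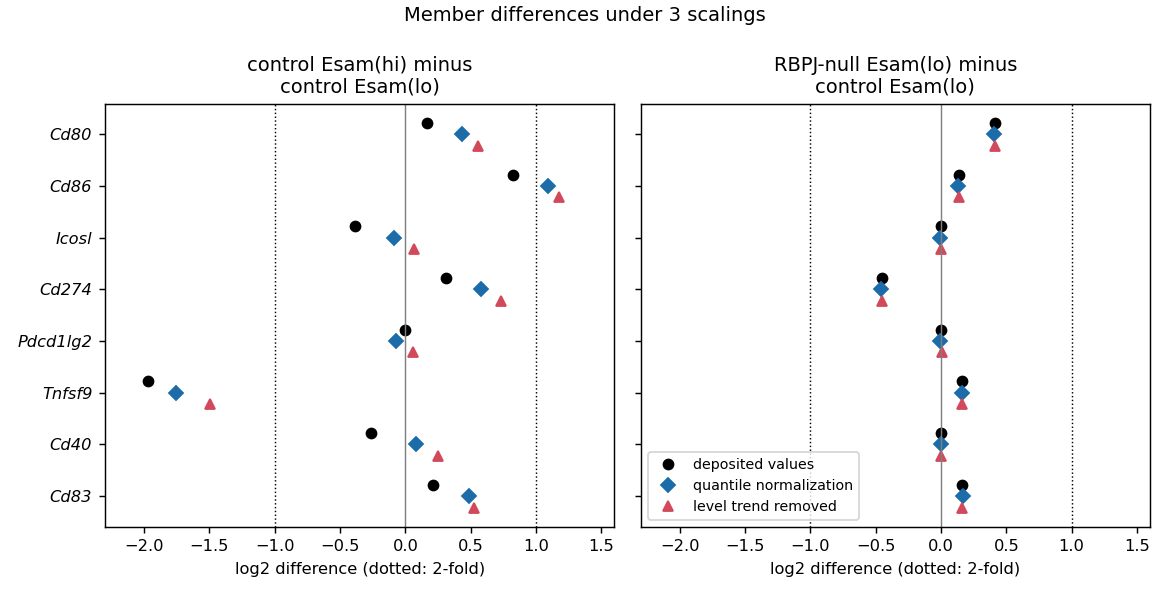
Log2 differences (x axis) of the 8 ligand genes above background (rows) between the control arrays (left) and between the Esam(lo) arrays (right), on the deposited values, under quantile normalization and with the level trend removed. On the left Tnfsf9 stays below -1 under each scaling and Cd86 passes 1 under quantile normalization and without the trend; on the right no gene passes 0.46 in either direction.

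Next, Esam(lo) cells labelled RBPJ-deficient were compared with the Esam(lo) cells of control mice. None of the 8 ligand genes above background was called in either direction. Over all 9616 genes tested, 0.0728% were called higher and 0.187% lower, so no call among 8 is near the background share. The members' median difference was 0.07, against 0.00 over all genes, with 4 higher values, 1 lower and 3 exact ties. Of all genes tested, 41.3% were tied.

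Cd80 and Cd274 were the ligand genes farthest apart here, in opposite directions. Cd80 was higher on the RBPJ-labelled array by 0.41 for the brighter probe set, at 11.52 against 11.11. Its other probe set read 11.46 against 10.96, so both lay on the same side. Cd274 was lower on the RBPJ-labelled array by 1.37-fold, at 10.09 against 10.54. Of all genes tested, 1.06% were at least as far above 0 as Cd80 and 0.697% at least as far below 0 as Cd274. The values of the plasma cell marker Jchain, named after its values were seen, also stepped down over the arrays, at 10.70, 9.68 and 8.68. Xbp1 (9.87, 10.43 and 10.43) and Prdm1 (7.99, 8.37 and 8.22), also above background, lay the other way, with their lowest value on the Esam(hi) array. Of 6 plasma cell markers 3 were above background on each array, with means of 7.99, 7.84 and 7.57, and Sdc1, Mzb1 and Tnfrsf17 were below it throughout. Their part in the Cd274 values was not tested.

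Since RBPJ binds DNA, the stretches before the starts of these genes are shown for the pair with the largest differences between the Esam(lo) arrays. They are the 250 bases before the annotated start on the plus strand, from RefSeq on GRCm38.p6, at chr16:38458683-38458932 for Cd80 and chr19:29367188-29367437 for Cd274. Capitals mark the RBPJ core letters TGGGAA, searched on both strands.

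Cd80: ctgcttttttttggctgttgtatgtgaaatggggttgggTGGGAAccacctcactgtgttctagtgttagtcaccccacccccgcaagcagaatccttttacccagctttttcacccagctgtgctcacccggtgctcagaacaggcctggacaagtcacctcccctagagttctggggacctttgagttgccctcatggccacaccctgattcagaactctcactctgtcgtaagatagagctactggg
Cd274: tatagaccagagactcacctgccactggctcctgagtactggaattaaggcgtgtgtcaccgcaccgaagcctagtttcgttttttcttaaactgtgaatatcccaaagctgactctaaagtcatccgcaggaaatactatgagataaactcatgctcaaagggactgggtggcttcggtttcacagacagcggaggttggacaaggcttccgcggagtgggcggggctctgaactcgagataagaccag

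The table of start sites held 4 of the 10 ligand genes, Icosl, Cd80, Cd274 and Pdcd1lg2. In their windows of 300 bases, 250 before and 50 after the start, the core was found only for Cd80, in 1 place 211 bases before the start. It occurs in 25.6% of 32851 such windows of the genome, so a match in 1 of 4 is close to the common share. The kB motif bound by NF-kB, searched in 3 exact spellings on both strands, matched none of the 4 windows and 0.350% of all windows. Variant spellings of the motif were not searched, so these windows cannot be said to lack a kB site. The Pdcd1lg2 window holds a run of letters close to a searched spelling but not equal to it. A match describes letters, not a bound site.

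The remaining ligand genes barely differed between the Esam(lo) arrays. Tnfsf9 was higher on the RBPJ-labelled array by 0.16, Cd83 by 0.16 and Cd86 by 0.13. Icosl, Cd40 and Pdcd1lg2 were tied. About 8 to 10% of all genes tested (7.93% for Tnfsf9, 8.28% for Cd83 and 10.2% for Cd86) were at least as far above 0.

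Last, the RBPJ-labelled Esam(lo) cells were compared with Esam(hi) cells of control mice. It shares an array with each of the others, so its values follow from theirs. Tnfsf9 was 4.38-fold higher on the RBPJ-labelled array and was the only ligand gene called, where 12.8% of 9404 genes tested were called higher and 1.17% lower. Cd274 was lower by a difference of -0.76 and Cd86 by -0.69, both short of 2-fold. With the level trend removed they stood at -1.22 and -1.04 and were called lower, where 2.98% of all genes were, and Tnfsf9 stood at 1.63, where 4.81% were called higher. Under quantile normalization Cd274 (-1.04) was called and Cd86 (-0.96) was not. The members' median was 0.12 on the deposited values and turned to -0.20 with the trend removed and -0.05 under quantile normalization.

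Genes that work with these ligands were read from 8 lists, of which 106 of 116 genes were on the array. Outside the ligand genes themselves, 16 of the 106 were called between the control arrays, and 9 with the level trend removed. None was called between the Esam(lo) arrays, where 0.0728% of all genes tested were called higher and 0.187% lower. Of the 106, 80 were above background on at least 1 control array. Of these 80, 14 (17.5%) were called lower in Esam(hi) cells and 2 (2.50%), Tnf and Slco5a1, higher, where 11.0% and 0.772% of all genes tested were called. With the trend removed the counts were 5 lower (6.25%) and 4 higher (5.0%), against 4.01% and 2.21%.

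Relatives by family differed from gene to gene. Of 9 other B7, butyrophilin and related surface genes, 3 were above background on a control array and 1 was called lower in Esam(hi) cells (median -0.90). It was Vsir, which encodes the inhibitory ligand VISTA and read 9.55, 10.70 and 10.52. With the trend removed its control difference was -0.68, short of 2-fold. Cd47, the signal that restrains phagocytes, read 10.84, 11.74 and 11.89. Of 13 other TNF family ligands, 6 were above background and 1 was called, higher (median 0.09). It was Tnf, at 10.74, 9.29 and 9.74, which was 2.75-fold higher on the Esam(hi) than on the Esam(lo) control array. Tnf thus lay opposite to Tnfsf9, within 1 family. Ltb (9.85, 9.92 and 9.85) and Tnfsf11, the gene for RANKL (7.85, 7.52 and 7.41), differed little.

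Other genes for molecules at the contact with T cells held 4 calls, all lower in Esam(hi) cells, among 10 above background (median -0.53). Of all genes tested 11.0% were called lower, and their median was -0.28. With the trend removed 3 of the 10 were called lower, where 4.01% of all genes were. The list's median was then -0.16, with 5 higher and 5 lower values. Sema4a, a semaphorin that costimulates T cells, was at least 6.10-fold lower, at 7.13 (below background), 9.77 and 10.12. Cd24a read 7.65, 9.49 and 9.58 and was 3.59-fold lower. Pvr, which encodes the ligand of CD226 and TIGIT, read 8.21, 9.92 and 10.16 and was 3.29-fold lower. These genes had the same order over the arrays as Tnfsf9, with the Esam(hi) array low and the RBPJ-labelled array highest. Cd48 was 2.53-fold lower (8.61, 9.95 and 9.99) but not called without the trend.

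Receptors that T cells carry showed no call between the control arrays: 9 of 14 were above background on at least 1 of them (median 0.02). Tnfrsf9, which encodes the receptor of the 4-1BB ligand, read 7.17, 6.74 and 6.77, which is at or near background. Havcr2, encoding TIM-3, read 11.26, 10.84 and 10.47 and so stepped down over the arrays as Cd274 did. Btla, an inhibitory receptor, was 1.78-fold lower in Esam(hi) than in Esam(lo) control cells and read 9.42 on the RBPJ-labelled array, and Icos read 7.80, 7.78 and 8.34. Both had their highest value on the RBPJ-labelled array.

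Of 15 CD40 signalling genes, all above background, 1 was called between the control arrays (median -0.18, and 0.25 with the trend removed). Bcl3, a nuclear partner of NF-kB, was 2.43-fold lower in Esam(hi) cells (9.34, 10.63 and 10.38), and at -0.80 it was not called without the trend. Rela, an NF-kB subunit, read 10.21, 10.83 and 10.76, and Relb read 9.91, 9.79 and 9.63. The list's values lay closer together than those of the contact molecules, as the plot of differences by list shows.

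Among 15 DC maturation genes above background, 1 was called, higher in Esam(hi) cells (median 0.00), and 3 with the trend removed (median 0.43). It was the transporter gene Slco5a1, at 8.49, 6.78 and 7.47. Ccr7, the receptor that leads DCs into T cell areas, read 12.48, 11.73 and 11.79, the same order as Cd86. It was called without the trend, at 1.07, as was Il12b, the IL-12 subunit gene (8.79, 8.16 and 7.99), which is named after its values were seen. Ccl22 (7.14, below background, then 7.89 and 8.11) and Marcksl1 (8.27, 9.11 and 9.56) lay the other way, with their lowest value on the Esam(hi) array.

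Of 15 genes for receptors and factors known to induce the ligands, 5 were called lower in Esam(hi) cells and none higher (median -0.74), where 11.0% of all genes tested were called lower and the median was -0.28. With the trend removed 2 were called lower (median -0.30), 10 had lower and 5 higher values, and 4.01% of all genes were called lower. Irf8, a transcription factor of DCs, was 3.27-fold lower (8.58, 10.29 and 10.07), Myd88, the Toll-like receptor adaptor, 2.87-fold (9.42, 10.94 and 10.59) and Tlr2 2.82-fold (8.79, 10.29 and 10.73). Tlr7 read 9.08, 9.52 and 8.73 and was the gene of this list farthest apart between the Esam(lo) arrays. Of 7 genes that act on the turnover of such ligands, 3 were called lower and none higher (median -0.75). With the trend removed none was called, and the median was -0.40. Cmtm6, whose product protects the PD-L1 protein from breakdown, was 2.71-fold lower (8.43, 9.87 and 9.72). The Cd274 value, which is RNA and not PD-L1 protein, was not lower. The surface proteases Adam17 (8.95, 10.07 and 10.26) and Adam10 (7.79, 8.83 and 8.94) were 2.17-fold and 2.06-fold lower.

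**Figure D4:**
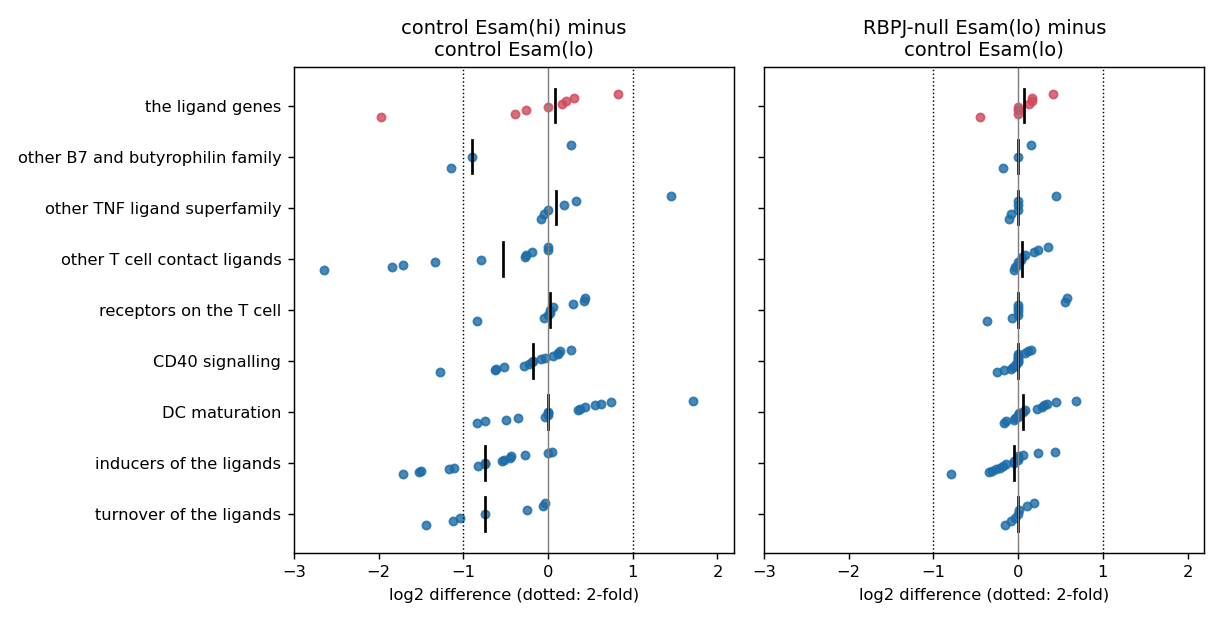
Log2 differences (x axis) of the ligand genes (red) and of the genes in 8 related lists (blue, rows), between the control arrays (left) and between the Esam(lo) arrays (right), 1 point per gene above background on at least 1 of the arrays compared, with each list's median as a bar. On the left the points reach -2.64 (Sema4a) and 1.71 (Slco5a1), and on the right none passes the dotted 2-fold lines.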

How the data were processed

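Affymetrix Mouse Gene 1.0 ST arrays of 3 sorted populations were analysed, 1 array per group, so precision is limited by their number. The authors deposited log2 expression for each probe set, computed with RMA and Affymetrix Expression Console, per the submitters' processing notes. RMA corrects background, normalizes and summarises probes by median polish; the sources used here do not say which arrays it was run on jointly, and the quartiles of the 3 columns differ.

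Probe sets were named from the platform's annotation table: 21789 have 1 gene, 1621 several and 12146 none. Only those with 1 gene were used, and a gene with several was represented by the brightest (999 genes). Related and marker genes were matched by symbol or, through the RefSeq gene table of GRCm38.p6, by Entrez number. Differences of log2 values were called by size alone, at 2-fold, over genes above background on at least 1 of both arrays. The fold of a gene whose dimmer array was below background is a lower bound, against that array's background level. The level trend was a lowess curve (fraction 0.3) of difference on mean level over the genes tested. Scripts ran in Python 3.11.15 with numpy 2.4.6, pandas 2.3.3, statsmodels 0.14.6 and matplotlib 3.10.9, and were tested on simulated data.

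Members, the 8 related lists and the 11 marker lists were chosen with earlier results of these data known. Of each related list, the rule named up to 4 genes farthest apart between the control arrays and up to 2 between the Esam(lo) arrays. Alternatives were no filter on dim genes, a filter at each array's 75th percentile, background at the 99th percentile, median centring, quantile normalization, trend removal, thresholds of 1.5-fold and 3-fold, and the mean of a gene's probe sets.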

Additional observations from a re-analysis of the deposited data

How the results depend on the processing

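Of 102 values of the main results under the alternatives, 89 stayed within 1.5 times of a count or within 1.5-fold of a median. Tnfsf9 was called lower in Esam(hi) than in Esam(lo) control cells under all 9 alternatives. Not all of them could undo that call. The 1.5-fold threshold and the absence of a filter only loosen the rule. Tnfsf9 has 1 probe set, so the mean over probe sets leaves its difference unchanged. Cd86 made the count of ligand genes called higher there 1 in place of 0 under quantile normalization, with the level trend removed and at the 1.5-fold threshold. Between the RBPJ-labelled and the control Esam(hi) array, the count called lower was 1 under quantile normalization, 2 with the trend removed and 2 at 1.5-fold, in place of 0. Of the 106 related genes, 16 were called between the control arrays, 9 with the trend removed, 29 at 1.5-fold and 5 at 3-fold. Between the RBPJ-labelled and the control Esam(hi) array the counts were 18, 9, 28 and 4, and between the Esam(lo) arrays 0, and 2 at 1.5-fold. The changes with a threshold follow from the threshold itself, and the cause of the others was not tested. Of 120 differences of single ligand genes under an alternative scaling or probe set rule, 118 moved by less than 1.5-fold. Many of the 120 could not move farther, so this count overstates stability. Only Cd80 has more than 1 probe set, and centring shifts every gene alike, by less than that limit. Tnfsf9, the only ligand gene called on the deposited values, kept its sign. Smaller differences could change sign within that limit. Between the control arrays Icosl (-0.39 to 0.06) and Cd40 (-0.26 to 0.25) did so with the trend removed. The 2 differences that moved farther were Tnfsf4 (0.60) and Cd70 (0.75) with the trend removed, both below background. No paired analysis was possible because each group has 1 array, and no array could be left out.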
